A study of Mus musculus with 7 samples.

Results

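The Hist1 cluster is the larger of the groups of replication-dependent histone genes in the mouse. Its members were taken as every gene on chromosome 13 of the mm9 annotation (GENCODE M1) whose symbol starts with Hist1h. There were 56 such genes, 55 of them with a protein-coding transcript, set beside 22365 genes with protein-coding transcripts on the numbered and sex chromosomes. Accessible chromatin was mapped in the liver of C57BL/6 male mice at 8 weeks of age, in 7 samples. DNase I was applied to nuclei of fresh liver (1 sample in the labels, although the header of its list names 2 pooled libraries), and the endonucleases Benzonase and Cyanase to pulverized frozen liver at 0.25, 1 and 4 U (3 samples each). For each nuclease there was 1 pooled list of hotspots, the stretches where tags were denser than the background, with a start and an end and no height. The lists held 60910 hotspots for Benzonase, 57675 for Cyanase and 72286 for DNase I. With 1 list per nuclease there is no spread between replicates, so all counts below are descriptions of these lists, and differences between nucleases were not tested. Fresh nuclei and frozen tissue cannot be told apart from DNase I and the other enzymes. Genes are not replicates either, since neighbours share hotspots.

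Replication-dependent histone genes supply the core histones H2A, H2B, H3 and H4 and the linker histone H1 while DNA is copied. They are short, mostly lack introns, and their transcripts end in a conserved stem-loop in place of a poly(A) tail. Many H2A and H2B genes lie head to head and start from a shared stretch of DNA, and a few members, such as Hist1h1t, Hist1h2aa and Hist1h2ba, are known for their use in the male germ line. The adult liver is a tissue in which few cells divide.

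The stretches between the transcription start sites (TSSs) of head-to-head genes carry much of what follows, so 5 of them are shown, together with the bases upstream of 2 linker histone genes and 2 stem-loops. All were read from mm9 and are written 5′ to 3′. In the stretches and upstream bases, capitals mark promoter words searched on both strands. The TATA box was searched as TATAAA. The word of the CCAAT box is that of its name. The octamer was searched as ATTTGCAT. The first 2 stretches were inside hotspots of all 3 nucleases, the next 2 are the copies of an inverted repeat and were in no hotspot, and the last is the start of the testis pair, also in no hotspot.
Hist1h2ae to Hist1h2bg, chr13:23663090-23663264, plus strand: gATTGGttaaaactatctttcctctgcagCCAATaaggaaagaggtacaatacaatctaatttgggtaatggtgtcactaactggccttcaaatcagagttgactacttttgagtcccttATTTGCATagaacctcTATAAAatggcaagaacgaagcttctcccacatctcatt
Hist1h2ac to Hist1h2bc, chr13:23775818-23776067, plus strand: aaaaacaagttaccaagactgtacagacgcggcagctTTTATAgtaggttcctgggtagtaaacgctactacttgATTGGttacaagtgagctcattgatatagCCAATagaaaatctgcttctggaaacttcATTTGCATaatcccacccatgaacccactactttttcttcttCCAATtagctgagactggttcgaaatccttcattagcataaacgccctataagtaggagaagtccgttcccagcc
Hist1h2bq to Hist1h2ao, chr13:21902069-21902235, plus strand: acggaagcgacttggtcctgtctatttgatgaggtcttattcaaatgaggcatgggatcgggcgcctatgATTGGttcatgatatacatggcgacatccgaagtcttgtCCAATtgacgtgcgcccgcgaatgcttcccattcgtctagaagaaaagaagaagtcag
Hist1h2ap to Hist1h2br, chr13:21925445-21925611, plus strand: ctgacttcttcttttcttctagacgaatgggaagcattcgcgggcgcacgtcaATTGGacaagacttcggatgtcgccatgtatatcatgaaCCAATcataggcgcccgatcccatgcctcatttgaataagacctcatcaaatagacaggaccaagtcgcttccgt
Hist1h2ba to Hist1h2aa, first 300 bases, chr13:24026026-24026325, plus strand: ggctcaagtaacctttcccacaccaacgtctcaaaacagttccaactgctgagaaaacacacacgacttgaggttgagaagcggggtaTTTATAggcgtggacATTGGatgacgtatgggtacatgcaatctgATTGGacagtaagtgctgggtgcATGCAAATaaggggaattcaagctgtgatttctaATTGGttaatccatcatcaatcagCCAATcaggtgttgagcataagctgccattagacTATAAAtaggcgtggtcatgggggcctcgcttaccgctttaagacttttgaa
Upstream of Hist1h1c, chr13:23830426-23830675, plus strand: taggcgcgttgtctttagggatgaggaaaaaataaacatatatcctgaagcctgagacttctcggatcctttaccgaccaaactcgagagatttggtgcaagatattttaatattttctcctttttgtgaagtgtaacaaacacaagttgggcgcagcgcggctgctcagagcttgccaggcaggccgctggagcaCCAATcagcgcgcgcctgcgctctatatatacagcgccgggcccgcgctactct
Upstream of Hist1h1t, chr13:23787430-23787679, plus strand: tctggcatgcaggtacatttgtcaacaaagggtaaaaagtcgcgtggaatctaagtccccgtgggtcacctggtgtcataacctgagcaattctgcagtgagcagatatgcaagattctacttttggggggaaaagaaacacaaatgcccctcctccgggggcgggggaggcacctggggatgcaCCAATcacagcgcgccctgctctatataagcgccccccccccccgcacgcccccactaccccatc
Stem-loop of Hist1h2bc, chr13:23776516-23776531, plus strand: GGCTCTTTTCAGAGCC
Stem-loop of Hist1h4d, chr13:23673819-23673834, plus strand: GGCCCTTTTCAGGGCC

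Within 250 bases before to 50 after the TSS, the CCAAT box was present at 46 of 56 members (82.1%), against 37.9% of all coding genes. TATAAA was present at 31 members (55.4%, against 13.4%), and the octamer at 11 (19.6%, against 1.72%). The TATA box was found in each histone type, at 4 of 6 H1, 8 of 15 H2A, 8 of 15 H2B, 4 of 9 H3 and 7 of 11 H4 genes. The other words were less evenly spread. The CCAAT box was at 14 of 15 H2A, 15 of 15 H2B, 8 of 9 H3 and 6 of 6 H1 genes, but at 3 of 11 H4 genes (Hist1h4a, Hist1h4c and Hist1h4d). The octamer, the word bound by POU factors such as that made by Pou2f1, was at 5 H2A and 6 H2B genes and at no H1, H3 or H4 gene. The median GC content of member promoters was 45.7%, below the 55% of all coding genes, and their median ratio of observed to expected CpG was 0.723 against 0.534. The stem-loop followed the stop codon within 200 bases in 51 of the 55 members with an annotated stop, and in 66 of 21916 coding genes in all, of which 61 had symbols starting with Hist. The members without a match were Hist1h2an, Hist1h3g, Hist1h4a and Hist1h2al. A match is a description of these letters, and a missing match says only that the searched form is not in the window.

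Most members carried hotspots. Over the gene and 1 kb either side, 49 of 56 members had a Benzonase hotspot, against 68.4% of all coding genes. For Cyanase the count was 47 (background 66.8%), and for DNase I it was 49 (background 63.4%). As shares these were 87.5%, 83.9% and 87.5%, all above the background. The TSS itself lay in a hotspot at 48 members for Benzonase (85.7%, background 53.8%), 43 for Cyanase (76.8%, background 52.2%) and 47 for DNase I (83.9%, background 44.0%). At 43 members (76.8%) the TSS was in hotspots of all 3 lists, against 42.5% of all coding genes. Coding genes under 1000 bp, a class that includes 44 of the members, had their TSS in a hotspot in 8.77%, 8.03% and 7.03% of cases for Benzonase, Cyanase and DNase I. The members thus stood further from genes of their own length than from genes in general.

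**Figure D1:**
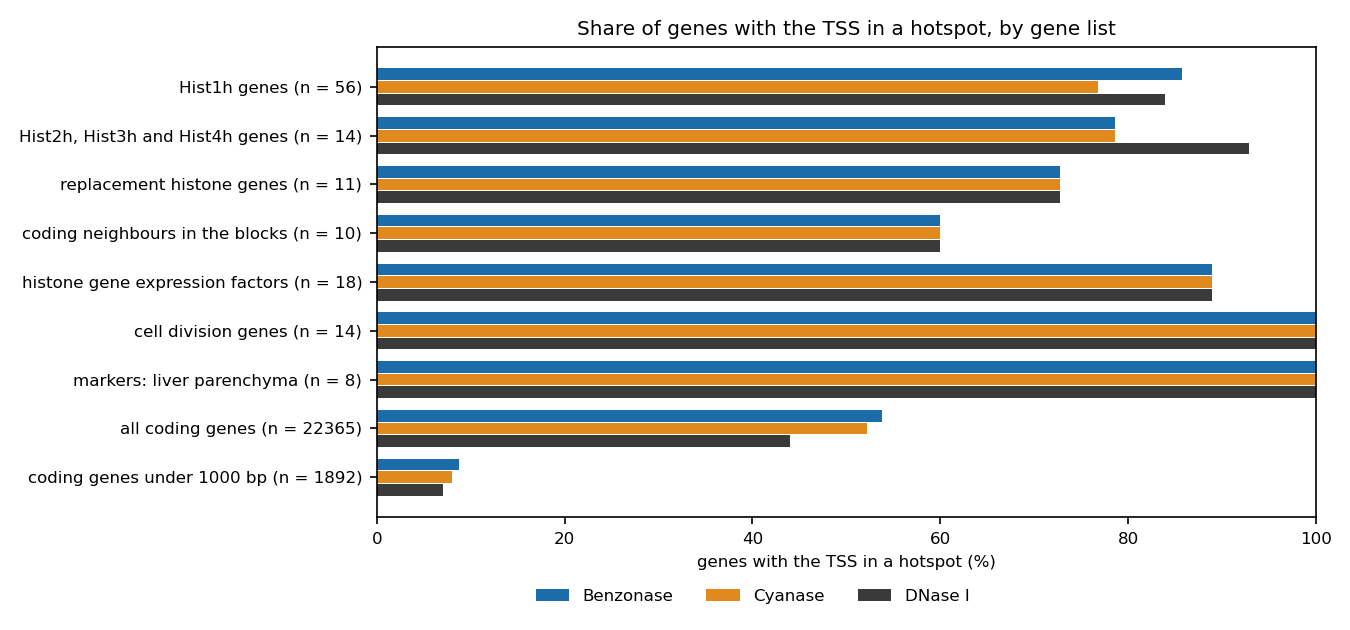
Percent of genes with the TSS in a hotspot (horizontal axis) for each gene list and nuclease, with the number of genes in brackets. The Hist1h genes reached 85.7%, 76.8% and 83.9% for Benzonase, Cyanase and DNase I, against 53.8%, 52.2% and 44.0% of all coding genes.

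The members formed blocks divided by gaps over 200 kb. Block A (chr13:21807632-22135545) held 24 members, block B (chr13:23622919-24026720) held 31, and Hist1h2al stood alone at chr13:51298057-51298434. In block A the TSS was in a hotspot at 19, 18 and 19 members for Benzonase, Cyanase and DNase I (79.2%, 75% and 79.2%). In block B the counts were 28, 25 and 28 (90.3%, 80.6% and 90.3%). Over all coding genes the shares were 53.8%, 52.2% and 44%. Hotspots covered 7.44% of both blocks together for Benzonase, 6.61% for Cyanase and 9.58% for DNase I, where they covered 1.81%, 1.66% and 1.95% of the genome. Block B was the more densely covered in each list, at 9.18%, 8.36% and 11.1%, against 5.3%, 4.46% and 7.73% of block A.

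The hotspots at member TSSs were narrower than those at the TSSs of coding genes in general. Their median width was 759 bp for Benzonase, 756 bp for Cyanase and 715 bp for DNase I, where the medians at the TSSs of all coding genes were 1255, 1161 and 853 bp, and at those of coding genes under 1000 bp 1069, 985 and 811 bp. The class under 1000 bp includes 44 of the members, and a hotspot shared by neighbouring genes was counted for each gene. Hotspots at member TSSs were wider than the medians over each whole list, 652, 641 and 649 bp. Other gene lists came closer to them: the medians were 860, 810 and 742 bp at genes of liver parenchyma, and 1048, 908 and 676 bp at cell division genes, the last below that of the members. Against all coding genes, the reach downstream of the TSS was shorter in each list. Benzonase hotspots reached a median of 312 bp into the member genes against 683 bp in all coding genes, and Cyanase hotspots 294 bp against 625 bp. For DNase I the values were 277 and 341 bp, closer together. Upstream, the medians were 421, 421 and 439 bp at members and 506, 479 and 454 bp at all coding genes, so that for DNase I there was little between them on this side. The member genes are themselves short, with a median length of 522 bp, and the hotspots ended within most of them: the hotspot over the TSS also held the last base of the gene at 5 of 48 members for Benzonase, 4 of 43 for Cyanase and 4 of 47 for DNase I. These counts have no background from other short genes beside them. A median of 31.8%, 30.1% and 30.2% of the window was covered, against 3.26%, 2.9% and 2.54% over all coding genes and 0% over coding genes under 1000 bp.

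**Figure D2:**
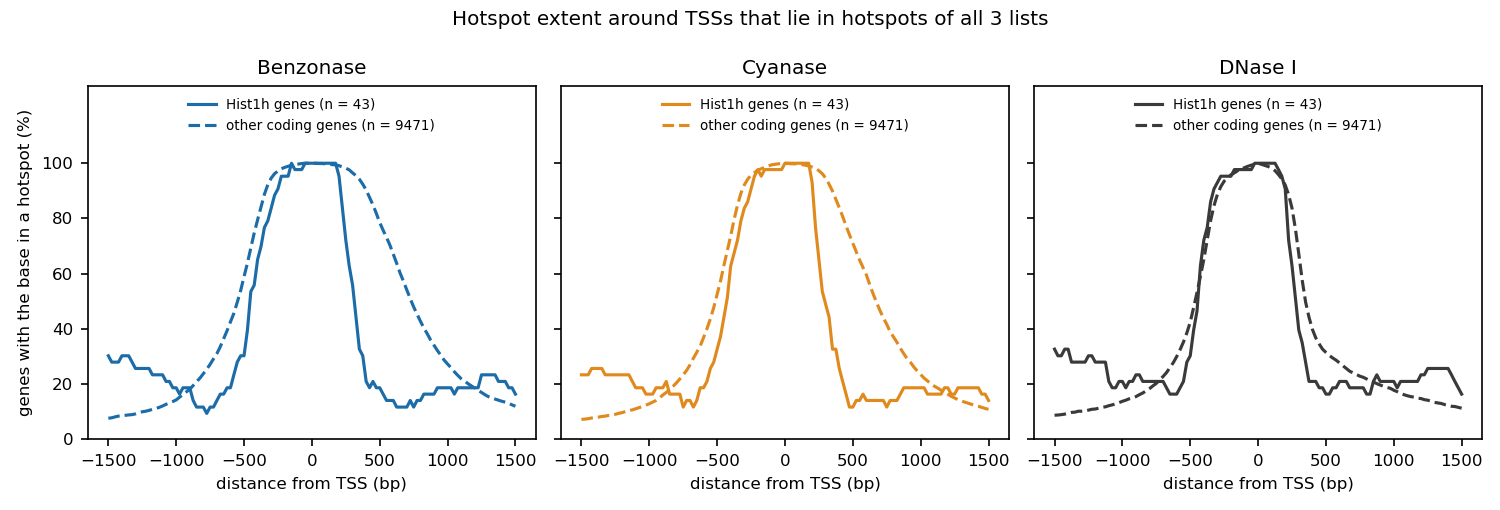
Percent of genes whose base at a given distance from the TSS (horizontal axis, bp, positive into the gene) is in a hotspot, for the 43 Hist1h genes (solid) and 9471 other coding genes (dashed) with the TSS in hotspots of all 3 lists. At 500 bp into the gene, 18.6% of Hist1h genes and 78.5% of other genes were covered by Benzonase hotspots, and 16.3% and 31.4% by DNase I hotspots. At 500 bp upstream these shares were 30.2% and 58.9% for Benzonase, and 30.2% and 42.4% for DNase I. At 400 bp upstream they were 65.1% and 79.5% for Benzonase, and for DNase I 72.1% and 65.1%, the Hist1h genes being the higher.

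At the members, the nucleases also placed the edges of their hotspots close together. Benzonase and DNase I hotspots at 38 shared places shared a median of 88.5% of their joint extent, against 66.3% at 8635 shared places over all coding genes, and their edges were a median of 29 bp apart, against 151 bp. Cyanase and DNase I shared 90.1% at the members and 69.9% over all coding genes, with edges 28.5 and 123 bp apart. Benzonase and Cyanase, both used on frozen tissue, shared 91.9% at the members and 91.7% over all coding genes. Their edges were a median of 18.5 bp apart at the members and 42 bp over all coding genes. By edge distance all 3 pairs of lists were closer at the Hist1h genes. By shared extent the pairs with DNase I were closer there, and Benzonase and Cyanase were about the same. A median of 48.4% of the 36-base words in member gene bodies occurred once in the genome, against 86% in the 500 bp upstream. The part that the placing of short tags played in these edges, or in the reach given above, was not tested.

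**Figure D3:**
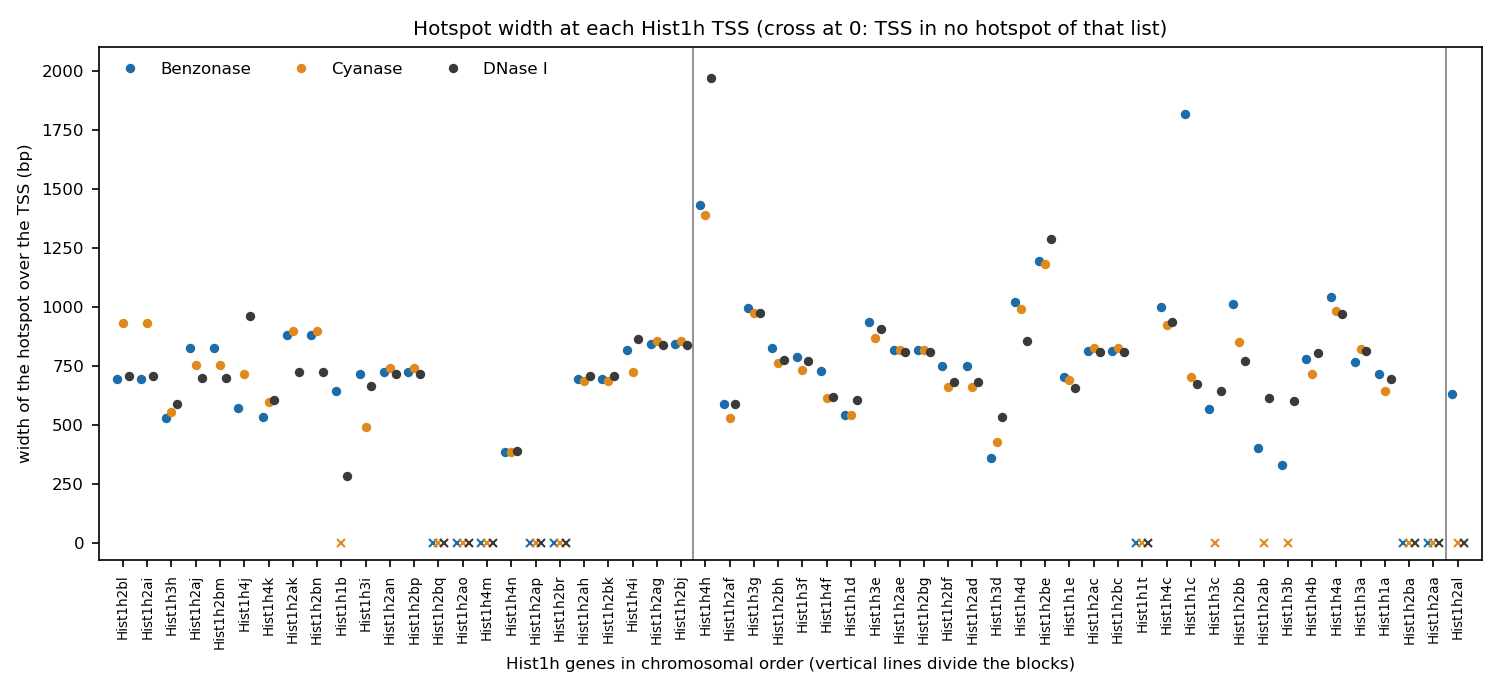
Width in bp of the hotspot over the TSS of each of the 56 Hist1h genes, in chromosomal order, for the 3 nucleases; a cross at 0 marks a TSS in no hotspot of that list. Most widths lie near the medians of 759, 756 and 715 bp, and the widest were at Hist1h4h (1967 bp, DNase I) and Hist1h1c (1818 bp, Benzonase).

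Of the 6 linker histone H1 genes, 5 had the TSS in a hotspot for Benzonase (83.3%), 4 for Cyanase (66.7%) and 5 for DNase I (83.3%). Over all coding genes the shares were 53.8%, 52.2% and 44%. Hist1h1c (chr13:23830676-23832235) had the widest Benzonase hotspot of the cluster, 1818 bp at chr13:23830372-23832189, which ran over nearly the whole gene. In the other lists the same stretch was divided: Cyanase had 703 bp over the TSS and 1085 bp further into the gene, and DNase I 674 and 911 bp. The covered share of the gene was 97.1% for Benzonase, 94.9% for Cyanase and 79.4% for DNase I. Hist1h1b had 644 bp over the TSS for Benzonase and 285 bp for DNase I, and none for Cyanase. A separate hotspot at its 3′ end was in all 3 lists, at 923, 864 and 715 bp. The Benzonase one overlapped the last bases of the gene, and the others lay past them. Hist1h1t, the testis linker histone (chr13:23787680-23788588), had no hotspot over its gene in any list. The only hotspot in its window, of 283 bp, was in the DNase I list, nearer to the neighbour Hist1h4c.

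Of 15 H2A genes, the TSS was in a hotspot at 12 for Benzonase (80%), 10 for Cyanase (66.7%) and 11 for DNase I (73.3%). H2B genes gave 12 of 15 (80%) in each list, and the 12 were in all 3. Over all coding genes the shares were 53.8%, 52.2% and 44% for Benzonase, Cyanase and DNase I. Hotspots reached furthest upstream at H2B genes, with medians of 524, 528 and 492 bp. Hist1h2be, whose gene record spans 37383 bp with an intron, had the widest TSS hotspots among H2B genes, at 1195, 1184 and 1288 bp. These lay at the other end of the record from its stem-loop, and reached into the neighbour Hist1h1e. Near the stem-loop (chr13:23677400-23677415), the hotspots of the 3 lists were 516, 600 and 688 bp wide. Hist1h2ab lay in hotspots of 405 bp for Benzonase and 615 bp for DNase I, and had no Cyanase hotspot in its window. Hist1h2al, apart from the rest of the cluster, had its TSS in a Benzonase hotspot of 631 bp only. A Cyanase hotspot covered 72.5% of that gene without reaching the TSS, and DNase I had none.

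Hist1h2bc (chr13:23776068-23784357) shared its TSS hotspot with Hist1h2ac, at 815, 825 and 812 bp, over the stretch printed above. Further into its long gene record, all 3 lists had a hotspot of 589, 614 and 623 bp. DNase I had 3 more, of 456, 629 and 252 bp, which brought its count in the window to 5 against 2 in each of the other lists. Across both blocks, hotspots in member windows but over no member TSS numbered 8 for Benzonase, 7 for Cyanase and 12 for DNase I. Of these, 2 for Benzonase, 0 for Cyanase and 6 for DNase I met no hotspot of another list. Of the 6 for DNase I, 3 were those in Hist1h2bc. The share of such hotspots over each whole list was not counted, so these counts have no background beside them.

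All 9 H3 genes had the TSS in Benzonase and DNase I hotspots, against 53.8% and 44% of all coding genes. In Cyanase hotspots 7 (77.8%) had it, against 52.2%. The exceptions were Hist1h3b and Hist1h3c. Hist1h3b had 333 bp for Benzonase, the narrowest TSS hotspot of that list at a member, and 604 bp for DNase I. Hist1h3c had 567 and 644 bp. Hist1h3b lies next to Hist1h2ab, so that 2 of the members without a Cyanase hotspot in the window were neighbours. Hist1h3g had one of the wide hotspots in the Cyanase and DNase I lists, at 974 bp in each, and 996 bp for Benzonase.

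Of 11 H4 genes, 10 (90.9%) had the TSS in a hotspot of every list, against 42.5% of all coding genes. For Cyanase, 90.9% was the highest share of the types. H4 hotspots reached furthest into the gene, with medians of 404, 405 and 445 bp downstream, and covered a median of 84.9%, 84% and 83.6% of the gene. The other types ranged from 28.2% to 56.9%. Hist1h4h (chr13:23622919-23623388) had 1432, 1388 and 1967 bp, and each of these hotspots took in the whole gene. The extra DNase I width was upstream, where that hotspot reached 964 bp against 383 bp for Benzonase and 358 bp for Cyanase. Hist1h4a (1043, 982 and 972 bp) and Hist1h4d (1020, 992 and 858 bp) were also among the widest. Hist1h4j had 962 bp for DNase I against 571 bp for Benzonase and 718 bp for Cyanase. The stem-loop site was inside a hotspot at 10 members for Benzonase, 10 for Cyanase and 11 for DNase I, of 51 with one. These counts have no background from the 3′ ends of other coding genes beside them.

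Divergent pairs were taken as adjacent genes that start away from each other with TSSs at most 1000 bp apart, where the 5′ ends do not overlap. Hist1h2aj and Hist1h2bm, an H2A and an H2B gene whose 5′ ends overlap, were therefore not taken as a pair. A single hotspot held both of their TSSs in each list, at 828, 756 and 702 bp. There were 13 with a Hist1h gene, 11 of an H2A and an H2B gene. A single hotspot took in both TSSs at 9 pairs (69.2%) in each list, where the background over 799 divergent coding pairs was 90.7% for Benzonase, 89.6% for Cyanase and 84.9% for DNase I. The share was thus below the background, and the 9 pairs were the same in all 3 lists. At Hist1h2ae and Hist1h2bg, with TSSs 176 bp apart, the hotspot was 820, 818 and 810 bp wide. At Hist1h2ah and Hist1h2bk, 178 bp apart, it was 696, 686 and 708 bp. The shortest distance, 136 bp, was that of Hist1h4d and the predicted gene Gm17658. These hotspots extended past both TSSs into both genes.

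The 4 pairs without such a hotspot were of 3 kinds. Hist1h2bh and Hist1h3f, 693 bp apart, each had a TSS hotspot of their own, of 828 and 787 bp for Benzonase, 762 and 735 bp for Cyanase, and 776 and 770 bp for DNase I. Hist1h2ba and Hist1h2aa, the testis pair 306 bp apart, had no hotspot in their windows in any list. Hist1h2bq with Hist1h2ao, and Hist1h2ap with Hist1h2br, both 168 bp apart, had none over either TSS.

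**Figure D4:**
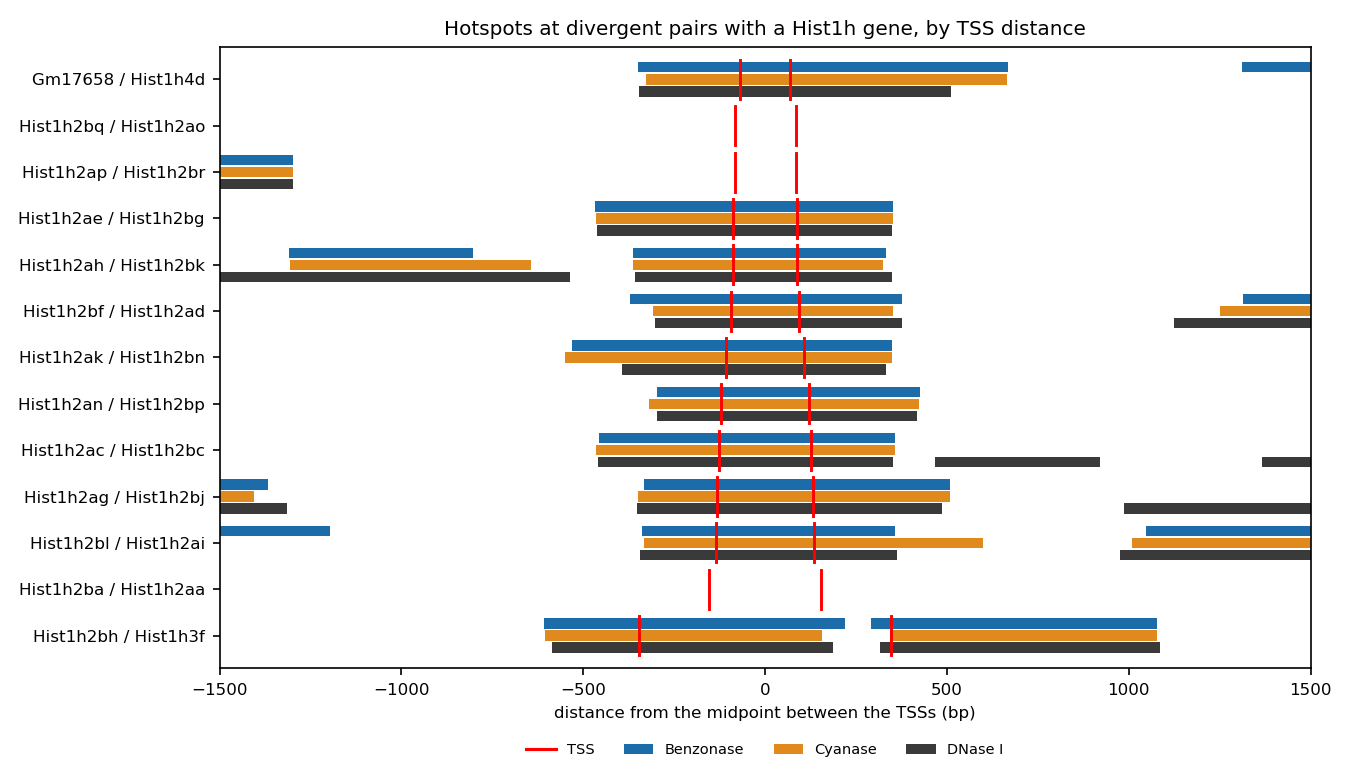
Hotspots of the 3 nucleases (bars) at the 13 divergent pairs, as distance in bp from the midpoint between the TSSs (red lines), with the pairs ordered by TSS distance from 136 to 693 bp. Bars end at the edge of the plot. A bar takes in both TSSs at 9 pairs in each list.

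The last 2 pairs belong to an inverted repeat within block A. Hist1h2bq and Hist1h2br, of 3788 bp each, had 0 differences, as had Hist1h2ao and Hist1h2ap over 519 bp and the 167 bases between the TSSs once 1 copy was read on the other strand. Hist1h4m and Hist1h4n differed at 1 of 402 bases. To measure how far a short tag could be placed, each 36-base word of the genome sequence was counted on both strands. In the windows of these 6 genes, 0% to 7.78% of the words occurred once. In those of the other 50 members the lowest share was 52.3%. Of the 6, Hist1h2bq, Hist1h2ao, Hist1h4m and Hist1h2br had no hotspot in the window in any list. Hist1h4n had one over its TSS in all 3, of 388, 388 and 390 bp, and this was also the only hotspot in the window of Hist1h2ap. Of the 388 words starting in its Benzonase hotspot, 27 occurred once. In the Hist1h4m gene, with no hotspot, 8.96% of the words occurred once. The part that tag placement played in these calls was not tested.

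**Figure D5:**
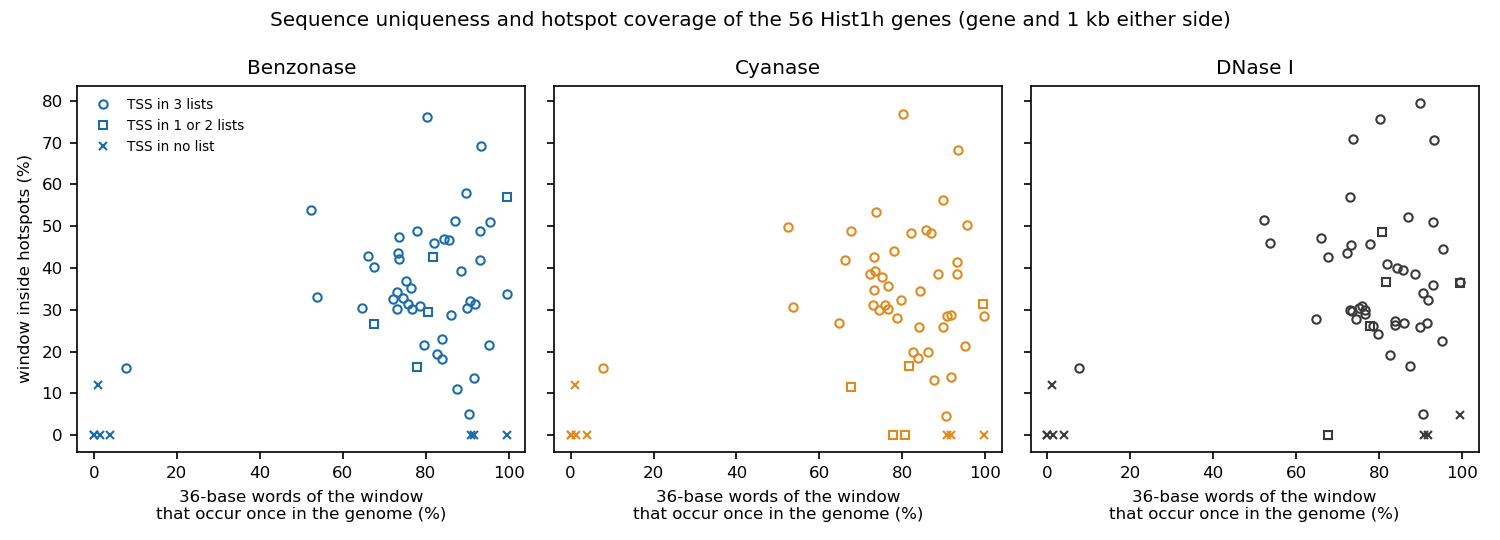
Percent of the window (gene and 1 kb either side) inside hotspots against the percent of its 36-base words that occur once in the genome, for the 56 Hist1h genes and each nuclease; symbols show in how many lists the TSS is in a hotspot. The 6 genes of the inverted repeat lie at 7.78% or below, and the 3 testis genes lie above 90% with little or no coverage.

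The testis genes were different in this respect. In the windows of Hist1h1t, Hist1h2ba and Hist1h2aa, 99.6%, 91.7% and 90.8% of the words occurred once, and none of the 3 had its TSS in a hotspot. The printed stretch between Hist1h2ba and Hist1h2aa has the TATA box, the CCAAT box and the octamer, and the promoter of Hist1h1t has the CCAAT box only. Leaving out these 3 and the 6 genes of the repeat, a choice made after the values were seen, 47 members remained. Of these the TSS was in a hotspot at 47 for Benzonase, 42 for Cyanase and 46 for DNase I. The genes left out were the 8 with the TSS in no list, and Hist1h4n, so these high counts follow from the choice. Over all coding genes, with none left out, the shares were 53.8%, 52.2% and 44%. Over all 56 members, those of the repeat included, the median share of gene body words that occur once was 48.4%, and by type it ran from 36.5% for H2A to 95.4% for H1. In the 34 members under 1000 bp with the TSS in all 3 lists, bases whose word occurs once were in Benzonase hotspots at 64.1%, and bases whose word occurs more often at 65.6%. For Cyanase these shares were 61.4% and 62.4%, and for DNase I 62.4% and 58.4%. Over all 43 such members regardless of length they were 15.6% and 49.7% for Benzonase, since a few long gene records hold most of the bases whose word occurs once; the limit to short genes was set after these values were seen.

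Other replication-dependent histone genes lie outside the cluster. Of 14 Hist2h, Hist3h and Hist4h genes, of which Hist3h2bb-ps and Hist2h3c2 are annotated as pseudogenes, the TSS was in a hotspot at 11 for Benzonase (78.6%), 11 for Cyanase (78.6%) and 13 for DNase I (92.9%), all above the backgrounds of 53.8%, 52.2% and 44.0%. Their hotspots were wider than those of the cluster, with medians of 1084, 1105 and 948 bp against 759, 756 and 715 bp. The TSSs of Hist3h2ba, Hist2h2aa1 and Hist2h3c1 were in DNase I hotspots only, and that of Hist2h3c2 in Benzonase and Cyanase hotspots only. In the window, Hist2h2aa1, Hist2h3c1 and Hist2h3c2 had hotspots of all 3 lists, and Hist3h2ba of DNase I only. The share of words that occur once was not counted for these genes, so how far tags could be placed there is unknown. Replacement histone genes, which are used outside DNA replication, had the TSS in hotspots at 8 of 11 (72.7%) in each list, H1f0, annotated as a pseudogene, among the 8, with medians of 1634, 1292 and 968 bp. The 3 without were H2afy, H2afy2 and H1fx.

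Among genes known to act in histone gene expression, 16 of 18 (88.9%) had the TSS in hotspots of all 3 lists, against 42.5% of all coding genes, including Npat, the coactivator of these genes, with 1920, 1610 and 989 bp, and Slbp, whose protein binds the stem-loop, with 1441, 1447 and 1202 bp. The exceptions were Zfp473 and Coil, each with a hotspot elsewhere in its window. All 14 cell division genes listed (100%), among them Mki67 and Top2a, had the TSS in hotspots of all 3 lists, against the same 42.5%. Among genes of liver parenchyma, 8 of 8 had the TSS in a hotspot of every list. Since all 14 cell division genes did as well, this count does not by itself mark the tissue. For the markers below, the backgrounds at the TSS were 53.8% for Benzonase, 52.2% for Cyanase and 44.0% for DNase I, and counts are in that order. Of 4 macrophage markers, 1, 1 and 4 did, of 3 endothelial markers 1, 1 and 0, of 3 bile duct markers 1 in each, and of 3 T and B cell markers 0, 0 and 1. Neither red cell marker did in any list. Of 4 brain and muscle markers 1, 1 and 0 did, and of 3 male germ line markers 1, 1 and 0, which was Sycp3. With the window in place of the TSS, where the backgrounds were 68.4%, 66.8% and 63.4%, the counts were 4, 3 and 4 for macrophage markers, 3, 3 and 3 for endothelium, 3, 1 and 1 for bile duct, 2, 2 and 1 for T and B cells, 2, 3 and 2 for brain and muscle, 1, 1 and 0 for the male germ line, and 0 in each list for red cells.

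Between the histone genes lay 10 other coding genes, of which 6 (60%) had the TSS in a hotspot for each nuclease, beside backgrounds of 53.8%, 52.2% and 44.0% for Benzonase, Cyanase and DNase I. In all 3 lists these were 5 genes, Zfp184, Gm17658, Slc17a1, Slc17a2 and Slc17a4, the last 3 from a family of phosphate and anion transporters. The TSS of Hfe was in Benzonase and Cyanase hotspots only, and that of Slc17a3 in DNase I hotspots only. Both genes had hotspots of all 3 lists in the window. Of hotspots more than 1 kb from any annotated gene, the blocks held 8 for Benzonase, 6 for Cyanase and 24 for DNase I. Hotspots of all kinds in the blocks numbered 72, 65 and 95 in that order. The share this far from genes over each whole list was not counted, so the 3 counts have no background beside them. Block A accounted for 14 of the 24 for DNase I. Of these 14, 9 held GTTCGANNC, the B box word of tRNA genes, on either strand, as did 2 of 3 for Benzonase and 0 of 2 for Cyanase. Of block A hotspots within 1 kb of an annotated gene other than a Hist1h gene, 3 of 5 held it for Benzonase, 3 of 5 for Cyanase and 5 of 5 for DNase I. Among all hotspots the share with this word was 3.39%, 3.17% and 3.17% for Benzonase, Cyanase and DNase I. In blocks A and B, where this was counted, no hotspot over a Hist1h TSS held it in any list, nor did a hotspot of block B more than 1 kb from an annotated gene. tRNA genes are not in the annotation used, and a match is a description of the sequence.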

How the data were processed

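Chromatin of mouse liver was digested with DNase I, Benzonase or Cyanase, and the authors sequenced the released DNA, aligned tags to mm9 and called hotspots at an FDR of 0.0 per the file headers, on tags pooled over the 3 enzyme amounts for Benzonase and Cyanase and over 2 libraries for DNase I. The deposited lists hold a chromosome, a start and an end for each hotspot, with no count or density, so the depth behind a hotspot is unknown. Starts were read as counting from 0; a shift of 1 bp is possible.

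Hotspots were scored with Python 3.11.15, numpy 2.4.6, scipy 1.17.1 and numba 0.67.0 and drawn with matplotlib 3.10.9. A gene was scored when a hotspot overlapped its record with 1 kb either side by at least 1 bp, or held its TSS, the 5′ end of the record. Where several hotspots held a TSS, the widest was used. The scoring was tested on simulated data. No test was made, since each nuclease has 1 pooled list. Neighbours and hotspots between genes were taken within the blocks, because Hist1h2al lies far from the others. Members and lists were chosen with earlier results of these data known.

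Named genes were those with no hotspot in any window, those with the TSS in some lists but not all, the 5 widest TSS hotspots per list, the 5 closest pairs and pairs without a shared hotspot, Hist1h1c, Hist1h1t, Hist1h2aa, Hist1h2ba and Hist1h2bc, and the exceptions of a list where these numbered 5 or fewer. Other genes were named after their values were seen. Alternatives were other flanks, an overlap of 100 bp, protein-coding members, other TSS definitions, pairs within 500 bp, hotspots within 150 bp joined, the narrowest hotspots of each list (below its lower quartile of width) left out, and words of 25 and 50 bases.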

Additional observations from a re-analysis of the deposited data

How the results depend on the processing

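Counts of members with a hotspot in the window, of members with the TSS in a hotspot and of divergent pairs with a shared hotspot stayed within 1.5 times the reported count under every alternative run, in each list. With 56 members and 13 pairs, none of these counts could have risen past that limit, so only a fall could have been seen. Members whose windows hold at least 50% words that occur once, an alternative chosen after seeing the data, numbered 50, of which 47, 42 and 46 had the TSS in a hotspot for Benzonase, Cyanase and DNase I. Of the 6 left out only Hist1h4n had been counted, so this alternative says nothing on how stable the count is. Median widths, and the share of words that occur once (48.4%, with 41.1% for 25 and 54.8% for 50 bases), stayed within the 95% binomial interval of the median over members. The median percent of the window covered moved with the flank, as its denominator does. It was 51.7%, 49.5% and 47% for Benzonase, Cyanase and DNase I over the gene alone, 47.9%, 45.6% and 46.2% with 500 bp either side, and 20%, 18.4% and 22.9% with 2 kb. The share of gene bases inside hotspots depended on the long gene records: for bases whose word occurs once it was 15.6%, 15.5% and 17.5% over all lengths and 64.1%, 61.4% and 62.4% in members under 1000 bp, a limit chosen after seeing the data. Joining hotspots within 150 bp brought the pairs with a shared hotspot from 9 to 10 for Benzonase and DNase I. No paired analysis was possible because each nuclease has 1 pooled list, and no sample could be left out for the same reason. Hotspots carry no height, so a TSS outside a hotspot was below the authors' threshold and not shown to be closed.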
